A study of Mus musculus with 12 samples.

Results

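Open chromatin was compared between PD-treated Hras.E1A and PD-treated Hras.Myc mouse embryonic fibroblasts (MEFs). Accessible DNA was found by ATAC-seq, with a transposase that inserts sequencing adapters where chromatin lets it in. Overlapping peaks of all 7 deposited lists were merged into loci, and a locus was taken as open in a list that had a peak there. Of 147985 loci in all, 72013 were open in at least 1 of the PD lists. Of these, 15771 (21.9%) were open only in Hras.E1A+PD, 12755 (17.7%) only in Hras.Myc+PD and 43487 in both, and the last are called shared. Both lines came from MEFs of E13.5 embryos. The labels name OG2, a mouse with an Oct4-GFP reporter, as their source, while the growth protocol among the labels names a wildtype ICR background. According to the study's methods its experiments used OG2 lines, apart from some figures, and those with ATAC-seq are not among the exceptions. Both lines carry an oncogenic Hras transgene, with adenoviral E1A in the first line and Myc in the second. Cells of both groups were treated for 2 days with PD0325901 (PD), an inhibitor of the kinase MEK, and each group had 2 libraries of about 50000 cells. Reprogramming to pluripotency was possible for Hras.E1A cells with PD and not for Hras.Myc cells, according to the study. Untreated cells of both lines, cells treated for 2 days with the histone deacetylase inhibitor TSA, and untreated Hdac7SA.Mef2d cells, which can be reprogrammed without an inhibitor, gave the other 5 lists. The sources used here do not state the dose of PD in these cultures, or whether a line is a single clone.

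MEK activates the kinase ERK, and among the factors that ERK signalling raises are the Fos and Jun proteins, which bind DNA together as AP-1 and open distal regulatory elements in fibroblasts. E1A binds the retinoblastoma protein and histone acetyltransferases of the host cell, and Myc binds E-box sequences with its partner Max. CTCF binds a long motif and holds the ends of chromatin loops. FOX proteins can bind closed chromatin, and PBX proteins bind DNA with HOX proteins, which set position along the body axis and in the limbs.

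The sequences below are the central 200 bp of some of the loci described in the following paragraphs, from the GRCm38 genome (mm10), plus strand. They were chosen from the 10 highest-ranked exclusive distal loci and promoters of each list, in order of rank, among those with AP-1, CTCF, FOX or PBX-HOX motifs, leaving out some loci, with a locus near Pou5f1 that was added after its values were seen. Capitals mark only the motif named for each sequence, on either strand. The AP-1 motif was TGACTCA, the FOX motif TGTTTAC and the PBX-HOX motif TGATNNAT, where N is any base, and the longer CTCF consensus is given by its name. Over all 7 lists, 26.1% of the distal loci held the AP-1 motif, 2.61% the CTCF motif, 3.33% the FOX motif and 13.2% the PBX-HOX motif. Loci open only in Hras.E1A+PD are shown first.
Btg1, intergenic, chr10:96722589-96722788, FOX motif: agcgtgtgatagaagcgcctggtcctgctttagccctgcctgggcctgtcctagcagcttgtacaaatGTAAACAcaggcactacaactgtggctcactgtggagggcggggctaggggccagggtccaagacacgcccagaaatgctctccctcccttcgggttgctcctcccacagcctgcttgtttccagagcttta
Tnik, intron, chr3:28409226-28409425, CTCF motif: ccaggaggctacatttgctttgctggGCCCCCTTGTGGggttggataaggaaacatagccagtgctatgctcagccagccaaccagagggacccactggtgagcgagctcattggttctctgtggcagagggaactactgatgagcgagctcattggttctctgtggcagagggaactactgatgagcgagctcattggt
Raet1d, intergenic, chr10:22402547-22402746, CTCF motif: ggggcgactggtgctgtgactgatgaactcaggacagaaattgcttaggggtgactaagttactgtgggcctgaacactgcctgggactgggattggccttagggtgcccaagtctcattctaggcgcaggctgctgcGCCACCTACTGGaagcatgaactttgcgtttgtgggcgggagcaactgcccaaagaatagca
Nme8, promoter locus, chr13:19698859-19699058, CTCF motif: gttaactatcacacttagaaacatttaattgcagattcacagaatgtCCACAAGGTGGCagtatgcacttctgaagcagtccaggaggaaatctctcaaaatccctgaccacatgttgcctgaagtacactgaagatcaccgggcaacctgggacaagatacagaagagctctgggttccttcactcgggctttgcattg
Pou5f1, intergenic, chr17:35503735-35503934, AP-1 motif: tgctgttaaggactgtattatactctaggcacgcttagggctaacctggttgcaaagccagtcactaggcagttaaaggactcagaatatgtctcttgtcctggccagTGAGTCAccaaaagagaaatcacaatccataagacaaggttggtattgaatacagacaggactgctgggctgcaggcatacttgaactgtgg

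The next sequences belong to loci open only in Hras.Myc+PD, with the same marking.
Ascc3, intron, chr10:50743651-50743850, PBX-HOX motif: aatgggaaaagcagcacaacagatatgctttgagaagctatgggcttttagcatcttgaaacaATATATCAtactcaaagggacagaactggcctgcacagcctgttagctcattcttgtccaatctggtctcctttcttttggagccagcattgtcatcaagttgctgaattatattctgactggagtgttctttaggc
Rbpms, intron, chr8:33849801-33850000, PBX-HOX motif: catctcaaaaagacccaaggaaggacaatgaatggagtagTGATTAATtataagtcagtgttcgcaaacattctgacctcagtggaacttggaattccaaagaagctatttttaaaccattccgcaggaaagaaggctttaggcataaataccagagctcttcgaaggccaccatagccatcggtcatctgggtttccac
Hipk2, intron, chr6:38829515-38829714, AP-1 motif: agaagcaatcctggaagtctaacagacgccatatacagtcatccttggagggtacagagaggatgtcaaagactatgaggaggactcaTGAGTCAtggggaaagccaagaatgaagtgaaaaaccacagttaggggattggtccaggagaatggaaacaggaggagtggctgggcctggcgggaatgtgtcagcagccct
Ifi204, promoter locus, chr1:173766993-173767192, FOX and PBX-HOX motifs: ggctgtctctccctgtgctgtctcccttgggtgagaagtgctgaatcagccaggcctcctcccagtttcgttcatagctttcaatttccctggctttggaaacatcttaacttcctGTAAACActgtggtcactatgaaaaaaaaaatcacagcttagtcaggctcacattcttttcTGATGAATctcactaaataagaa

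Each group had 1 peak list in which its libraries were pooled, so no difference below could be tested over replicates, and the transgenes, the lines and the libraries cannot be told apart. The intervals of shares are exact (Clopper-Pearson, 95%) and hold only the error of counting loci. The lists held 59823 peaks with PD in Hras.E1A and 56774 with PD in Hras.Myc, against 81201 and 67738 in the untreated lines. Read depth is unknown, so absence of a peak does not show closed chromatin, and access in fewer cells cannot be told apart from weaker access in each cell. Of 9 fibroblast markers, 8 had a locus within 1000 bp of a transcription start site (TSS) in each PD list. Thy1, a surface marker of fibroblasts, had none in Hras.E1A+PD, and the collagen gene Col1a2 had none in Hras.Myc+PD. All 4 epithelial markers (Cdh1, Epcam, Krt8 and Krt18) had such a locus in both lists, as did 2 of 3 neural markers. Endothelial markers were open for 2 of 4 in Hras.E1A+PD and 1 in Hras.Myc+PD, with Tek, an angiopoietin receptor, in the first alone. Of 3 muscle markers, Myod1 was open in Hras.E1A+PD and none in Hras.Myc+PD. Of 3 blood markers, Csf1r had one in all 7 lists, and Ptprc and Spi1 had none in any list. Of the pluripotency markers Pou5f1 and Nanog had none in any list while Esrrb had one in all 7. Over all 15187 loci this close to a TSS of a protein-coding gene, 7.54% were open only in Hras.E1A+PD and 3.67% only in Hras.Myc+PD. The share of all genes with such a locus is not given here, so these counts are not read as marking a cell type.

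Most of the accessible promoters were common to both lines, and most exclusive loci lay outside promoters. Among the 15187 promoter loci, whose edge lay within 1000 bp of the TSS of a protein-coding gene, 7.54% were open only in Hras.E1A+PD and 3.67% only in Hras.Myc+PD. Among the 56826 distal loci these shares were 25.7% and 21.5%, and among loci over 100000 bp from a TSS they were 28.1% and 27.6%. The median distance to the nearest TSS was 30438 bp for Hras.E1A+PD-only, 37497 bp for Hras.Myc+PD-only and 12583 bp for shared loci. Introns held 46.6% and 46.8% of the exclusive loci and 38.5% of the shared loci. Within 500 bp of a peak of the other list lay 219 Hras.E1A+PD-only loci (1.39%) and 221 Hras.Myc+PD-only loci (1.73%).

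Hras.E1A+PD had both the longer list and the larger number of exclusive loci. When every list was reduced to its 56774 highest-scoring peaks, 14408 loci were open only in Hras.E1A+PD and 14370 only in Hras.Myc+PD. Promoters made up 7.26% of the Hras.E1A+PD-only loci (6.86% to 7.68%) and 4.37% of the Hras.Myc+PD-only loci (4.03% to 4.74%), against 31.0% of the shared loci. This order turned with lists of equal size, where the shares were 6.23% and 7.17%.

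Exclusive loci had lower scores than shared loci, and strong exclusive loci were more frequent in Hras.Myc+PD. The authors' peak score was ranked within each list, from 0 for the lowest to 100 for the highest peak. The median rank was 37.4 for Hras.E1A+PD-only loci and 40.6 for Hras.Myc+PD-only loci, against 55.9 and 53.1 for shared loci in the same lists. In the top 10% of its list lay 548 Hras.E1A+PD-only loci (3.47%) and 884 Hras.Myc+PD-only loci (6.93%). Among distal loci of the highest score decile, 11.4% in Hras.E1A+PD and 20.5% in Hras.Myc+PD were absent from the other list, and in the lowest decile 45.4% and 39.6% were absent. Promoters of the highest decile were nearly all shared, as 1.36% and 0.714% of them were absent from the other list.

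**Figure D1:**
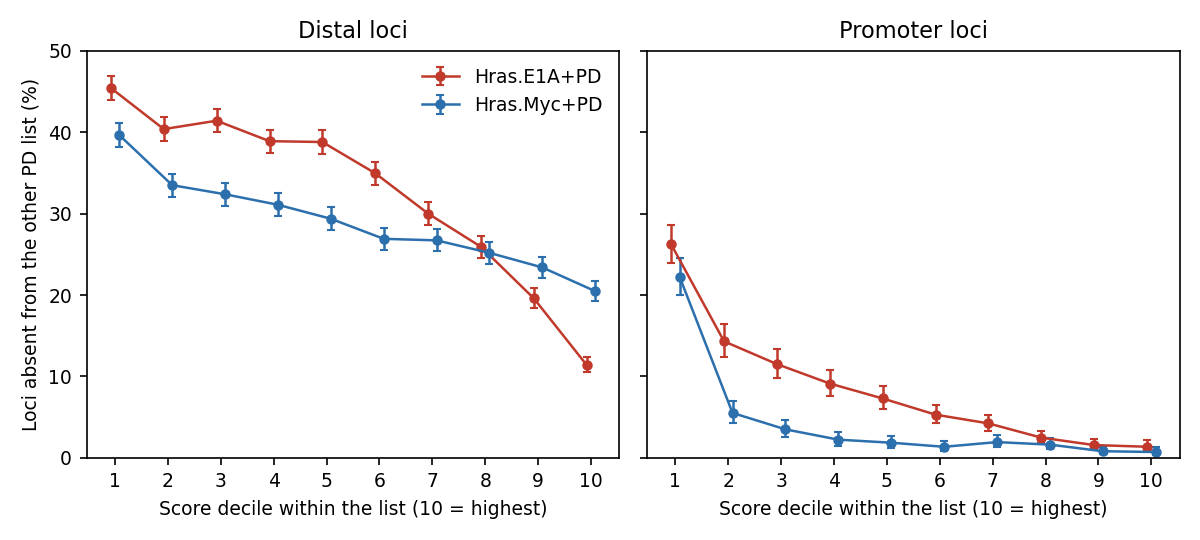
Share of loci absent from the other PD list (vertical axis, %) by score decile within each list (horizontal axis, 10 is the highest), for distal and promoter loci, with exact binomial 95% intervals as bars. In distal loci the Hras.E1A+PD line falls from 45.4% to 11.4% and crosses the Hras.Myc+PD line, which falls from 39.6% to 20.5%, and in promoter loci both end below 2%.

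The exclusive loci of the lines had different states before treatment. Of the Hras.E1A+PD-only loci, 36.4% were open in both untreated lists and another 29.6% in untreated Hras.E1A but not in untreated Hras.Myc. Of the Hras.Myc+PD-only loci, 38.5% were open in both untreated lists, while 7.48% were open in untreated Hras.Myc alone and 10.0% in untreated Hras.E1A alone. A further 44.0% of the Hras.Myc+PD-only loci (43.1% to 44.9%) were in neither untreated list, against 31.2% (30.5% to 31.9%) of the Hras.E1A+PD-only loci. In all, 66.1% of the Hras.E1A+PD-only loci were open in their own untreated line and 45.96% of the Hras.Myc+PD-only loci in theirs, while 48.5% of the latter were open in untreated Hras.E1A. The untreated Hras.E1A list was the longer, and with all lists at equal size these shares were 46.8% and 35.7%. Shared loci were open in both untreated lists in 80.3% of cases.

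**Figure D2:**
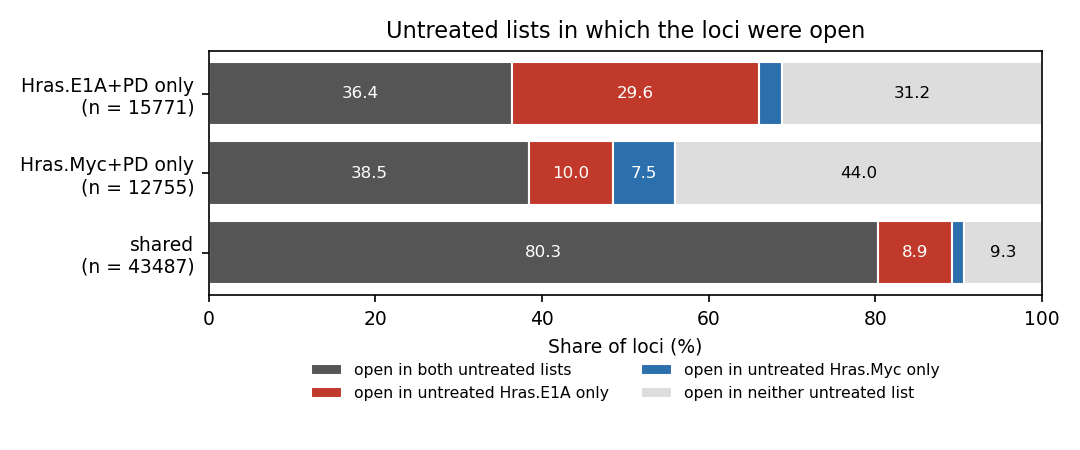
Share of the loci of each class (horizontal axis, %) that were open in both untreated lists, in untreated Hras.E1A only, in untreated Hras.Myc only or in neither. The Hras.E1A+PD-only bar has 29.6% open in untreated Hras.E1A only, the Hras.Myc+PD-only bar has 44.0% open in neither, and the shared bar has 80.3% open in both.

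Loci that differed between the untreated lines mostly had no peak with PD, and more of the rest had a peak in the PD list of their own line than in that of the other line alone. Of the 20300 loci open only in untreated Hras.E1A, 51.6% were in neither PD list, 23.02% were Hras.E1A+PD-only, 6.31% were Hras.Myc+PD-only and 19.1% were shared. Of the 6909 loci open only in untreated Hras.Myc, 70.9% were in neither PD list, 13.8% were Hras.Myc+PD-only, 6.28% were Hras.E1A+PD-only and 9.05% were shared. The loci of untreated Hras.E1A were thus more often open in the PD list of their own line alone than those of untreated Hras.Myc, with intervals of 22.4% to 23.6% and 13.0% to 14.6%.

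Most exclusive loci were also open in some other list. Of the Hras.E1A+PD-only loci, 70.5% were open in Hdac7SA.Mef2d, against 65.2% of the Hras.Myc+PD-only and 90.7% of the shared loci, in a list of 119251 peaks. Only 8.29% of the Hras.E1A+PD-only loci (1308 loci) and 18.2% of the Hras.Myc+PD-only loci (2322 loci) were in none of the other 5 lists. Of the Hras.Myc+PD-only loci, 26.0% were in all other 5 lists and so lacked a peak only in Hras.E1A+PD, and of the Hras.E1A+PD-only loci 18.4% lacked a peak only in Hras.Myc+PD.

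Loci could also be ordered by the ability to be reprogrammed that the study gives for the cells. The pattern open in Hras.E1A+PD and Hdac7SA.Mef2d but absent from untreated Hras.E1A, untreated Hras.Myc and Hras.Myc+PD held 3113 loci. Its counterpart with Hras.Myc+PD in place of Hras.E1A+PD held 2818 loci. These are parts of the 4917 Hras.E1A+PD-only and 5613 Hras.Myc+PD-only loci that were in neither untreated list. The opposite pattern, absent from Hras.E1A+PD and Hdac7SA.Mef2d and open in the other 3 of these lists, held 917 loci, fewer than its counterpart with 1409 loci absent from Hras.Myc+PD and Hdac7SA.Mef2d. The 917 are part of 4908 Hras.Myc+PD-only loci open in both untreated lists, and the 1409 of 5747 such Hras.E1A+PD-only loci. In the distal loci of the first pattern 6.67% held the FOX motif and 11.6% the PBX-HOX motif, against 2.48% and 18.7% in its counterpart. The TEAD motif, bound by the effectors of Hippo signalling, was in 14.8% and 14.9%.

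Distal loci of the classes differed in the frequency of several motifs, CTCF and AP-1 among them. The CTCF motif was in 4.64% of the Hras.E1A+PD-only and 0.558% of the Hras.Myc+PD-only distal loci, or 679 of 14626 against 68 of 12197. Weighted to the same GC content, the ratio of the shares was 8.32 (95% interval for counting error 6.49 to 10.7). The AP-1 motif went the other way, in 14.0% against 27.8%, with a ratio of 0.509 (0.484 to 0.534). The FOX motif was in 4.81% against 2.39%, a ratio of 2.02 (1.77 to 2.31), and the PBX-HOX motif in 9.85% against 17.8%, a ratio of 0.55 (0.517 to 0.584). Shared distal loci held CTCF in 8.08%, AP-1 in 16.1%, FOX in 2.88% and PBX-HOX in 10.5% of cases. Over the distal loci of all 7 lists these shares were 2.61%, 26.1%, 3.33% and 13.2%. The AP-1 share of the Hras.Myc+PD-only loci was thus near that over all distal loci, and the Hras.E1A+PD-only share was below it. Over the 6 other settings tried for the motifs the ratio ranged from 6.16 to 13.2 for CTCF, from 0.487 to 0.56 for AP-1, from 1.73 to 2.10 for FOX and from 0.489 to 0.664 for PBX-HOX.

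Of 37 motifs searched, 11 had an interval of the ratio above 1, 15 below 1 and 11 across 1. The motif bound by MAF and BACH proteins (MARE), part of whose matches are also AP-1 matches, had a ratio of 0.389 (0.321 to 0.471), and that of MEF2, which acts in muscle, 0.407 (0.313 to 0.529). TEAD had a ratio of 0.811. The motifs of OCT (POU) factors, of SP factors and of E2F, the factor held by the retinoblastoma protein, had ratios of 1.81, 1.93 and 1.97. The interval for SP reached 1 when only the central 100 bp were searched, with a ratio of 1.38 (0.919 to 2.08). The E2F motif was rare, in 61 and 25 loci (0.417% and 0.205%), and its interval was 1.24 to 3.14. Shared distal loci held it in 0.513% of cases. KLF, whose members promote epithelial fate, had a ratio of 1.25 (1.08 to 1.44), and its interval reached 1 under 3 of the other settings, with ratios of 1.07 to 1.14. The E-box of MYC and TFE factors did not separate the lines, at 3.17% and 2.91% of the loci and a ratio of 1.09 (0.948 to 1.24), and ETS, with 35 and 22 loci, had a ratio of 1.30 (0.76 to 2.21).

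**Figure D3:**
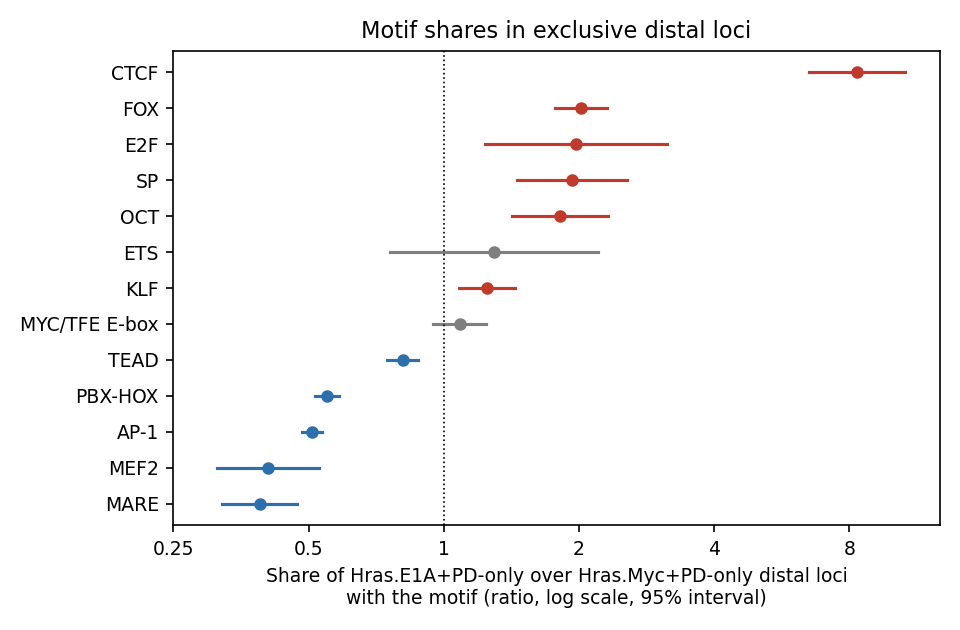
Ratio of the GC-weighted share of distal loci with a motif, Hras.E1A+PD-only over Hras.Myc+PD-only (horizontal log axis), for 13 motifs, with approximate 95% intervals for counting error as lines. Red is above 1, blue below 1 and grey across 1. CTCF stands at 8.32, AP-1 at 0.509 and MARE lowest at 0.389.

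The AP-1 difference lay in loci that were open before treatment. Among distal loci open in both untreated lists, 55.6% of the Hras.Myc+PD-only loci (2605 of 4683) held the AP-1 motif, against 24.0% of the Hras.E1A+PD-only loci (1271 of 5292) and 20.2% of the shared loci. These are loci that lost their peak with PD in Hras.E1A and kept it in Hras.Myc, or the reverse. Among loci open in neither untreated list the motif was in 5.87% of the Hras.Myc+PD-only and 5.24% of the Hras.E1A+PD-only loci, and the intervals overlapped (5.26% to 6.53% and 4.62% to 5.91%).

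CTCF differed in the other direction, in loci open before treatment and in the rest. Among distal loci open in both untreated lists the CTCF motif was in 7.92% of the Hras.E1A+PD-only, 0.641% of the Hras.Myc+PD-only and 10.3% of the shared loci. The Hras.E1A+PD-only loci were thus closer to the shared loci, and those that Hras.Myc+PD alone had kept held the motif least often. Among loci open in neither untreated list the shares were 0.915% (0.663% to 1.23%) and 0.276% (0.155% to 0.455%), and the intervals did not overlap. In the Hras.E1A+PD-only loci the share with the CTCF motif was larger at higher scores, with 3.15% in the lowest score quartile of the list and 8.86% in the highest.

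FOX and PBX-HOX motifs also differed in loci without a peak in the untreated Hras lines. In distal loci open in neither of these lists, the FOX motif was in 5.98% of the Hras.E1A+PD-only and 2.49% of the Hras.Myc+PD-only loci, and the PBX-HOX motif in 12.0% and 21.4%. Shared loci of this kind held the FOX motif in 3.28% of cases and the PBX-HOX motif in 19.6%. The share of Hras.Myc+PD-only loci with the PBX-HOX motif was 13.0% in the lowest and 25.0% in the highest score quartile, while in Hras.E1A+PD-only loci it was 8.67% and 9.61%. Promoter loci repeated part of this, with AP-1 in 16.7% of 558 Hras.Myc+PD-only, 5.24% of 1145 Hras.E1A+PD-only and 2.69% of shared promoters. CTCF in exclusive promoters was rarer, in 23 and 5 loci.

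**Figure D4:**
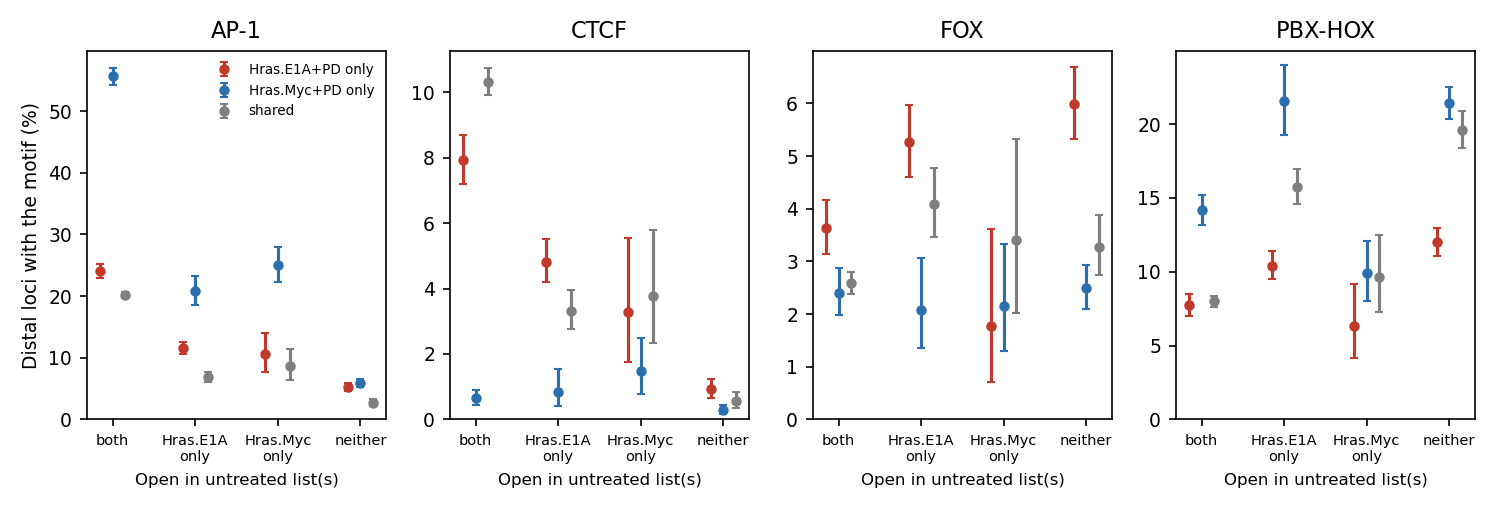
Share of distal loci with the AP-1, CTCF, FOX and PBX-HOX motif (vertical axes, %, each with its own scale) by the untreated lists in which the loci were open, for the 3 classes, with exact binomial 95% intervals. AP-1 reaches 55.6% in Hras.Myc+PD-only loci open in both untreated lists and CTCF 0.641% in the same loci, and FOX and PBX-HOX differ between the exclusive classes in loci open in neither.

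Shared loci differed in the same motifs by their rank. Across the 43487 shared loci the ranks in both lists had a Spearman coefficient of 0.672, and it was 0.836 in promoters and 0.607 in distal loci. These coefficients are across loci of lists that share peak positions and are given as a description. In 67.7% of the shared loci the ranks were within 20 points of each other, while 1169 loci ranked over 50 points higher in Hras.E1A+PD and 866 over 50 points higher in Hras.Myc+PD. Shared distal loci with the CTCF motif had a median difference, Hras.E1A+PD minus Hras.Myc+PD, of 11.7 points, against 0.518 in those without. With the AP-1 motif the median was -3.60 points against 2.32 without, with the PBX-HOX motif -5.09 against 1.95, and with the FOX motif 2.74 against 1.28. The spread was wide, with quartiles of -1.07 and 29.0 for loci with the CTCF motif and -19.7 and 10.1 with AP-1. The quartiles were -21.9 and 10.5 with PBX-HOX and -10.4 and 19.4 with FOX. E2F had a median of 6.99 and TEAD of -3.04.

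The strongest shared loci were at the top of both lists. A locus in an intron of Chl1, a neural adhesion molecule, ranked highest of the distal loci, at 99.999 in both. The highest shared promoters were those of Tmem270, Scp2, a lipid transfer protein, Rtl8b, Spag9, a scaffold of JNK signalling, and Zfand6, with ranks from 99.5 to 99.97. Among shared loci with unequal rank, a distal locus nearest to Trps1, a repressor of the GATA family, was at 96.6 in Hras.E1A+PD and 1.34 in Hras.Myc+PD. It ranked 69.1 and 82.4 in the untreated lines. The reverse was seen nearest to Foxo6, a forkhead factor, with a rank of 2.66 in Hras.E1A+PD and 98.9 in Hras.Myc+PD, and no peak in any other list. Near Qdpr, which recycles a cofactor of amino acid hydroxylases, loci at 152822 bp and 155615 bp from the TSS differed in opposite directions, with ranks of 93.5 and 0.168 at the first and 3.95 and 99.3 at the second.

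The highest-ranked loci open only in Hras.E1A+PD were often strong in other lists too. The first lay in an intron near H60b, chr10:22223458-22223857, with ranks of 99.98 with PD and 99.998 without treatment in Hras.E1A, and of 99.94 without treatment and 58.9 with TSA in Hras.Myc. The locus near Raet1d whose sequence is given above had ranks of 99.8, 99.98, 99.8 and 70.2 in the same order. H60b and Raet1d encode ligands of the NKG2D receptor of natural killer cells. Both loci were thus near the top in untreated Hras.Myc and without a peak in Hras.Myc+PD. Near H60b the promoter of Raet1e, a ligand gene of the same family, was open in both PD lists with ranks of 99.2 and 93.2. A locus 38527 bp from the Raet1e TSS and with a CTCF motif, was at 99.99 and 99.95.

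Other strong Hras.E1A+PD-only distal loci were nearest to Ear1, Btg1, Mbip, Rai14, Tnik, Odr4, Fam19a3 and Ttll7. The Btg1 locus, 105135 bp from this antiproliferative gene and with a FOX motif, ranked 99.9 in Hras.E1A+PD and 93.8 and 95.1 in the untreated lines. The locus in an intron of Tnik, a kinase of Wnt signalling, ranked 99.8, 98.6 and 98.7. Only the locus in Rai14, which encodes an actin-binding protein, was absent from both untreated lists and the TSA lists, with a rank of 99.8 in Hras.E1A+PD and 4.72 in Hdac7SA.Mef2d. So 9 of the 10 highest-ranked distal loci were open in untreated Hras.E1A, against 65.2% of all Hras.E1A+PD-only distal loci.

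Of the 10 highest-ranked distal loci open only in Hras.Myc+PD, 3 were in no other list, against 18.2% of all Hras.Myc+PD-only loci. Those nearest to Msl3l2, Ascc3 and Arrdc3 had ranks of 99.95, 99.9 and 99.8. The locus in an intron of Rbpms, an RNA-binding protein of smooth muscle, had a rank of 99.8 and was otherwise open only in Hdac7SA.Mef2d, at 84.6. The Ascc3 and Rbpms loci held the PBX-HOX motif. The locus in Hipk2, a stress kinase, was different, with an AP-1 motif and ranks from 98.4 to 99.9 in all 6 lists other than Hras.E1A+PD. A locus nearest to Prr16 likewise had a peak in all 6, with ranks from 74.4 to 99.98. Others were nearest to Ndufa4, Rhou and Cd300ld.

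The highest-ranked exclusive promoters belonged to genes of varied roles. In Hras.E1A+PD the promoter of Angptl1, an angiopoietin-like protein, ranked 98.7 and was also at 64.4 and 65.4 in the untreated lines. The promoters of Nptx2, a neuronal pentraxin, and of Lmcd1, a LIM-domain cofactor, ranked 95.9 and 93.3, and were open in untreated Hras.E1A and absent from untreated Hras.Myc. A locus 667 bp upstream of Ifnb1, the gene of interferon beta, ranked 96.1, with 84.9 and 58.8 in the untreated lines. The others were Sbk2, Cryzl2, Nudt11, Btbd8, Nme8 and Mroh3, and all 10 were at 93.3 or above.

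In Hras.Myc+PD the promoter of Ifi204, an interferon-inducible DNA sensor, ranked 99.8, and it was above 99 in untreated and TSA-treated cells of both lines. It lacked a peak in Hras.E1A+PD alone. The promoter of Dmd, the dystrophin gene, ranked 99.7, with 93.9 in untreated Hras.E1A and 99.96 in Hdac7SA.Mef2d, and had no peak in untreated Hras.Myc. Promoters of the innate immune genes Tlr6 and Siglecg ranked 88.8 and 97.6 and were at 97.3 and 88.0 in untreated Hras.Myc. Those of Taar8c and Tmprss11c, at 93.4 and 90.9, were in no other list. Prss46, Adam30, Tcte3 and Ovch2 made up the 10.

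By gene, exclusive loci were spread thinly. Of 15243 genes with a locus within 10000 bp of a TSS, 3327 had an Hras.E1A+PD-only locus, 2314 had an Hras.Myc+PD-only locus and 529 had both. Over the 26561 loci in these windows, 14.4% were open only in Hras.E1A+PD and 9.93% only in Hras.Myc+PD. With lists of equal size these shares were 12.0% and 14.0%, in the reverse order. A net excess of 3 or more loci was found at 53 genes for Hras.E1A+PD and 24 for Hras.Myc+PD.

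Genes with a large net number in Hras.E1A+PD had varied roles. Art3, of the ADP-ribosyltransferase family, and Nme9 had 5 Hras.E1A+PD-only loci and none of the other kind. Sp7, the osteoblast factor osterix, had 4 and none, and Utrn, which encodes the dystrophin relative utrophin, had 6 and 1. Ppargc1a, a coactivator of mitochondrial genes, Dst, a cytoskeletal linker, Atp2b4, a calcium pump, and Tsc22d1 had 3. The loci at Sp7 were weak, with ranks in Hras.E1A+PD from 7.95 to 17.4. When only the top 50% of the peaks of each list by score were used, called the stronger peaks, a locus that is weak in the other list counted as absent from it, and the net number was 2 at Atp2b4, 1 at Art3, 0 at Sp7, Nme9, Ppargc1a and Dst, and -1 at Utrn.

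Pou5f1, which encodes the pluripotency factor Oct4, had 4 Hras.E1A+PD-only loci and no other locus of either PD list. They lay at chr17:35501216-35501615, chr17:35502355-35502754, chr17:35503635-35504034 and chr17:35509272-35509671, between 4602 bp upstream and 3454 bp downstream of a TSS. Their ranks in Hras.E1A+PD were low, at 3.78, 23.7, 4.41 and 8.50. All 4 were open in untreated Hras.E1A, with ranks of 2.92, 3.73, 9.71 and 12.4, and the last 2 also in untreated Hras.Myc, with 5.41 and 13.4. The locus 2183 bp upstream held the AP-1 motif shown in capitals above. No list had a peak within 1000 bp of a Pou5f1 TSS. The OG2 reporter contains Pou5f1 sequence. The labels differ on whether these cells carry it, and by the study's methods the ATAC-seq figures used OG2 lines. The part of the reporter in these peaks was not tested. With lists of equal size the net number was 2, and with the stronger peaks alone it was 0.

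In Hras.Myc+PD, Mid1, a ubiquitin ligase on microtubules, had the largest net number, with 5 exclusive loci. Akap2, an anchor of protein kinase A, and Crabp2, which carries retinoic acid, had 4 each. Runx1, a factor of blood and mesenchymal cells, Hrh1, the histamine receptor, St3gal1, Nkx2-3, Cd93, Clca4a and Bloc1s5 had 3. At Runx1 the ranks in Hras.Myc+PD were 40.0, 54.8 and 20.1, and the first 2 loci were absent from both untreated lists. At Hrh1 they were 21.5, 67.0 and 79.7, and the last 2 loci held AP-1 motifs. With the stronger peaks alone, the net counts turned to the other list at Mid1 (-2) and Nkx2-3 (-1), fell to 0 at Runx1, Crabp2 and St3gal1, and were 2 at Hrh1 and Clca4a.

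The members of 29 lists of related genes were then counted in the same way, and the counts are read against the shares over all such loci, 14.4% and 9.93%. These shares were 12.0% and 14.0% in lists of equal size, and 23.3% and 15.2% with the stronger peaks alone. In the pluripotency network 14 of 43 loci (32.6%) were open only in Hras.E1A+PD and 4 (9.30%) only in Hras.Myc+PD. Besides Pou5f1, Stat3, the effector of LIF signalling, had 2 Hras.E1A+PD-only loci, and Dppa3, a germ cell and oocyte gene, Fgf4, Lin28a, Sall4, Tdgf1, Il6st, Klf4 and Sall1 had 1. The Dppa3 locus, 7208 bp from the TSS, ranked 99.2 in Hras.E1A+PD, 54.1 and 19.6 in the untreated lines and 56.3 in Hdac7SA.Mef2d. The LIF receptor Lifr, Esrrb, Klf4 and Sall1 had 1 Hras.Myc+PD-only locus. With the stronger peaks alone the counts were 5 and 3 of 19, or 26.3% and 15.8%, near the shares over all loci in that setting.

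Fibroblast identity genes had the reverse, with 8 of 59 loci (13.6%) open only in Hras.E1A+PD and 16 (27.1%) only in Hras.Myc+PD. Prrx1, a homeodomain factor of limb mesenchyme, the receptor Pdgfrb, Tbx18, the microfibril protein Mfap5 and Col1a2 had 2 Hras.Myc+PD-only loci each. The strongest of them, 7969 bp upstream of Prrx1, ranked 82.3 in Hras.Myc+PD and 92.4 in Hdac7SA.Mef2d and was in no other list. This order turned with the stronger peaks alone, where 9 of 20 loci (45.0%) were open only in Hras.E1A+PD and 2 (10.0%) only in Hras.Myc+PD.

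Skeletal muscle genes had 6 of 16 loci open only in Hras.E1A+PD and none only in Hras.Myc+PD, with 2 at Des, 2 at Myf6 and 1 each at Myod1 and Mef2c. The Mef2c locus ranked 87.6 and the others from 3.44 to 48.1. Within 50000 bp, 21.9% of 32 loci were open only in Hras.E1A+PD, against 19.6% over all loci in that setting. Without promoter loci the share was 27.3% of 11, against 23.6%. It stayed higher within 5000 bp (40.0% against 11.2%), with lists of equal size (33.3% against 12.0%) and with the stronger peaks (40.0% of 5 loci against 23.3%). In TGF-beta pathway genes 10 of 46 loci were open only in Hras.E1A+PD and 2 only in Hras.Myc+PD, with 3 each at the ligand genes Tgfb2 and Inhba, but with the stronger peaks alone the counts were 1 and 2 of 15. Receptor tyrosine kinase genes had 8 and 2 of 37, with 2 each at the collagen receptor Ddr2 and the neurotrophin receptors Ntrk2 and Ntrk3. KLF and SP factor genes had 10 and 4 of 58, 4 of them at Sp7.

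Genes of AP-1 factors had no Hras.E1A+PD-only locus among 35 and 3 Hras.Myc+PD-only loci, at Fos, Maff and Bach1. The Fos locus ranked 4.34 and the Maff locus 1.07, and the Bach1 locus, with an AP-1 motif, ranked 56.3 and was at 77.9 and 98.0 in the untreated lines. With the stronger peaks alone the counts were 6 and 3 of 14. RUNX, CEBP and NFI factor genes had 3 and 6 of 42 loci, with 2 at Runx3 beside the 3 at Runx1, and Runx2 had 2 of the other kind. With lists of equal size they had 1 and 13 of 40, and with the stronger peaks alone the order turned, to 7 and 3 of 13. ERK targets and feedback regulators had 8 and 3 of 66 loci, with 2 Hras.E1A+PD-only loci at Ccnd1, the cyclin that ERK signalling raises. With lists of equal size they had 4 and 6 of 62, in the reverse order as over all loci.

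The other lists had the following counts. Cell cycle genes of the RB and E2F pathway had 5 and 5 of 63, with 2 Hras.Myc+PD-only loci at the inhibitor Cdkn1a and 2 Hras.E1A+PD-only loci at Cdk6. Hox genes had 12 and 10 of 89, developmental transcription factor genes 26 and 23 of 167, and WNT pathway genes 8 and 7 of 75. In lists of equal size these counts were 9 and 18 of 86, 20 and 39 of 161, and 6 and 13 of 73, so that more loci were open only in Hras.Myc+PD in all 3 lists. Epithelial genes had 12 and 6 of 72, with 2 Hras.E1A+PD-only loci at the tight junction gene Ocln, and with lists of equal size 10 and 13 of 70. With the stronger peaks alone their order turned as well, to 5 and 11 of 26. BMP pathway genes had 9 and 6 of 47, integrin and focal adhesion genes 11 and 7 of 57, and genes of the MYC and MAX network 5 and 2 of 28. With lists of equal size BMP genes had 5 and 7 of 43 and integrin genes 6 and 10 of 52, in the reverse order as over all loci. TEAD and Hippo genes had 6 and 8 of 43, MHC class I and interferon genes 5 and 7 of 42 (5 and 0 of 18 with the stronger peaks alone), and E1A partners and histone acetylation genes 6 and 7 of 50. SRF and contractile genes had 5 and 4 of 48, mesenchymal genes 5 and 4 of 50, and p53 pathway genes 4 and 1 of 28. With lists of equal size SRF and contractile genes had 4 and 7 of 47, and with the stronger peaks alone 1 and 8 of 27. Mesenchymal genes had 3 and 6 of 48 and 3 and 6 of 18 in these settings. Neural markers had 4 and 3 of 25, endothelial markers 1 and 1 of 17, and blood markers 1 and 1 of 6. MYC growth targets had 0 and 2 of 29, and housekeeping genes 0 and 1 of 27.

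**Figure D5:**
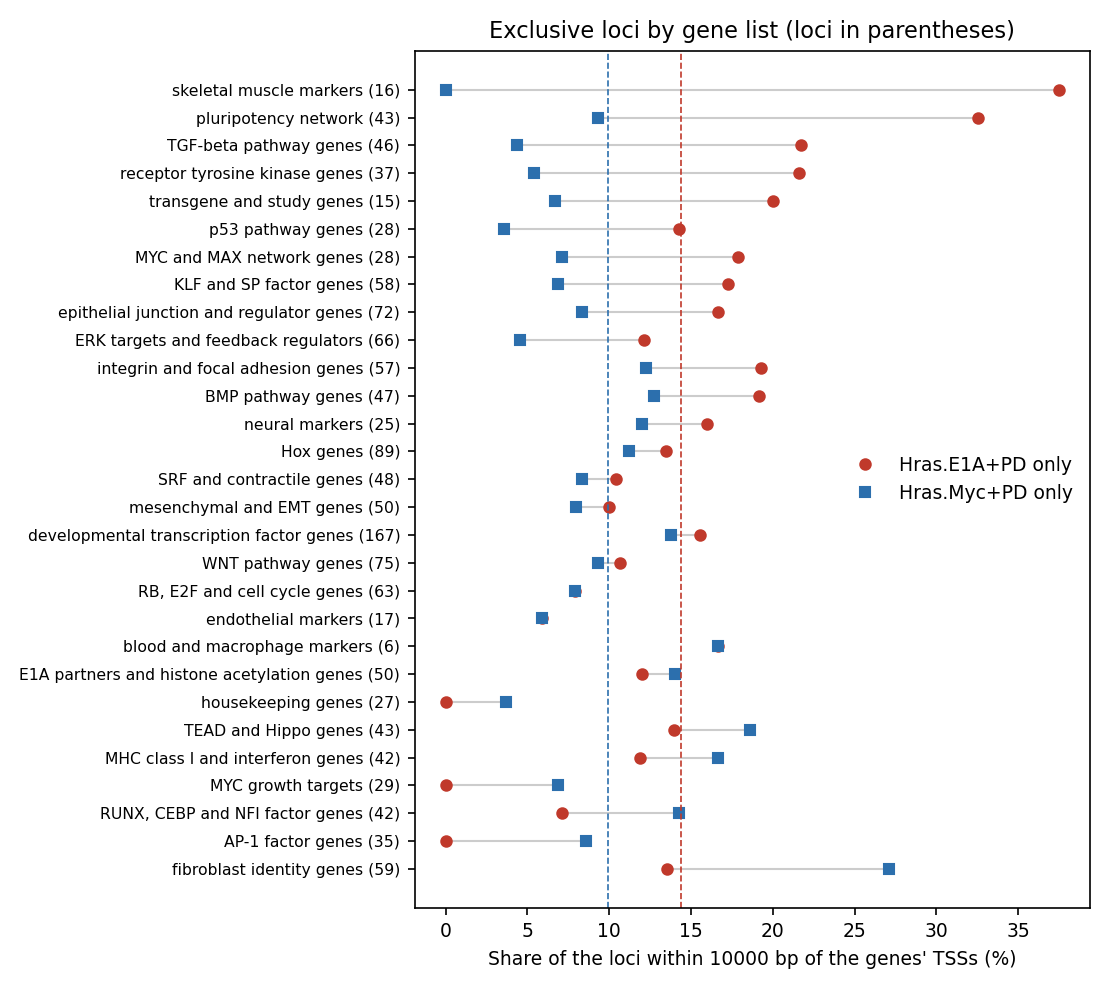
Share of the loci within 10000 bp of the TSSs of 29 gene lists (horizontal axis, %) that were open only in Hras.E1A+PD (red circles) or only in Hras.Myc+PD (blue squares). Dashed lines give the shares over all such loci, 14.4% and 9.93%. Skeletal muscle and pluripotency genes lie furthest to the right in red, and fibroblast identity genes in blue, where the order turned with the stronger peaks alone, a setting in which pluripotency genes had 26.3% and 15.8%. Within 50000 bp the skeletal muscle genes had 21.9% open only in Hras.E1A+PD, against 19.6% over all loci.

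The genes that the study singled out were mostly open in both. According to the study, chromatin at Cdh1 and Epcam was open in both untreated lines and closed with PD. Its examples of loci closed only in wildtype MEFs and PD-treated Hras.E1A were near Isl1 and Tcf7l2. The regions that the study showed were not matched to the loci here. The promoters of Cdh1 (E-cadherin) and Epcam, adhesion molecules of epithelia, were shared, with ranks of 33.7 and 33.5 at Cdh1 and 64.4 and 58.9 at Epcam. In an intron of Cdh1, chr8:106614682-106615081 was open only in Hras.Myc+PD, with a rank of 6.05 and an AP-1 motif, and it was at 31.7 and 38.2 in the untreated lines. The promoters of Hras, Myc and Isl1, a developmental regulator, were shared. Tcf7l2, an effector of Wnt signalling, had shared loci at its start sites and 2 Hras.E1A+PD-only loci within 10000 bp, with ranks of 17.5 and 1.60, the second 931 bp from a TSS. Within 10000 bp the genomic Myc gene had 1 Hras.E1A+PD-only locus, 6869 bp from a TSS, with a rank of 64.0 and a peak in no other list, and 1 weak Hras.Myc+PD-only locus with a rank of 3.56.

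Exclusive distal loci formed runs at a few genes. Within 100000 bp, the most Hras.E1A+PD-only distal loci were 8, at Ptpn3, at Nfib, a factor of lung and brain development, and at Apbb2. Hras.Myc+PD-only loci reached 9 at Cwc22 and within Tenm4, and 8 at Prrx1. Their median ranks were between 10.4 and 27.3. The lines also differed in the distribution over chromosomes. The number of Hras.E1A+PD-only over that of Hras.Myc+PD-only loci was 1.24 in all and 1.963 on chromosome 1, where it was above 1 in all 20 windows of 10000000 bp. On the other autosomes the ratio ran from 0.996 to 1.56. On chromosome 1 the same ratio for loci open in only 1 of the untreated lists was 3.52, within the range of the other autosomes, 2.197 to 3.68.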

How the data were processed

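The authors deposited 1 peak list per group, with peaks 400 bp wide and a score whose scale is not stated in the sources used here. Bowtie2 2.4.5 and MACS2 2.2.7.1 are named in the submitters' processing notes, with mm10, and according to the study's methods low-scoring peaks were recovered with redefine_peaks, which shares peaks between samples, so the lists are not independent. The sources used here do not say how libraries were pooled, and give no read depth. Wildtype MEFs were not analysed here.

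Peaks on chromosomes 1 to 19, X and Y that overlapped by 1 bp or more were merged over the 7 lists, and scores were used only as ranks within a list. Loci were assigned to the nearest TSS of a protein-coding gene in GENCODE M21 basic (GRCm38), and no peak lay past a chromosome end. The central 200 bp of a locus were searched for motifs on either strand, and shares were weighted over 10 GC bins. Python 3.11.15, numpy 2.4.6, pandas 2.3.3, scipy 1.17.1 and matplotlib 3.10.9 were used, and the procedure was tested on simulated data.

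The loci, gene lists and motifs were chosen with earlier results of these data known. Named were, for each list, the 10 genes whose net number of exclusive loci was largest, the 10 highest-ranked exclusive promoters and distal loci, up to 4 members of each gene list in each direction, 13 motifs set by a fixed rule, the most extreme shared loci, the longest runs, and Hras, Myc, Cdh1, Epcam, Isl1 and Tcf7l2. Predicted genes were left out, and some items are not reported here. Others, such as further members of the pluripotency list, the locus near Raet1e and the printed Pou5f1 sequence, were chosen after their values were seen. Other settings tried were a 50% cover, a 500 bp tolerance, other merging, autosomes, lists of equal size, the stronger peaks alone, other TSS distances and other motif windows. The stronger peaks were applied to the gene lists after seeing the data.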

Additional observations from a re-analysis of the deposited data

How the results depend on the processing

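No paired analysis was possible because each group had 1 pooled list, and leaving out a replicate was not possible for the same reason. The peak score has no stated scale and depth is unknown, so a locus absent from a list is not shown to be closed. The counts of exclusive loci moved by less than 1.5 times under every setting tried, and shared loci fell to 18466 with the stronger peaks alone. The promoter share of Hras.E1A+PD-only loci was 6.23% with lists of equal size, 13.4% with the stronger peaks, 9.55% within 2000 bp and 11.5% with TSSs of any gene. That of Hras.Myc+PD-only loci was 7.17%, 10.5%, 6.52% and 7.51%, and 3.80% with a 500 bp tolerance, so the order turned with lists of equal size only. With lists of equal size and with the stronger peaks, 46.8% and 49.8% of the Hras.E1A+PD-only loci were open in untreated Hras.E1A (65.2% of distal loci), and 35.7% and 36.4% of the Hras.Myc+PD-only loci in untreated Hras.Myc. With the full lists 60.8% of the Hras.E1A+PD-only loci were absent from untreated Hras.Myc, and 51.5% of the Hras.Myc+PD-only loci from untreated Hras.E1A. With lists of equal size these shares were 67.4% and 70.3%, so the order turned, and with the stronger peaks they were 67.3% and 61.0%. In these 2 settings the lists were shorter, except that of Hras.Myc+PD at equal size. With the stronger peaks the fibroblast list had 45.0% and 10.0% exclusive loci, and the net numbers at Utrn (-1), Mid1 (-2) and Nkx2-3 (-1) turned. Of 78 motif ratios under other settings, 4 had an interval that reached 1 where it had not, for KLF and SP. Of 80 values of named genes, 31 moved by over 1.5 times or fell to 0 and 3 turned, and of 290 values of gene lists 52 moved beyond their counting interval. The cause was not tested for any of these.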
